A study of Mus musculus with 4 samples.

Results

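Dbp, Tef, Hlf and Nfil3 were followed in RNA sequencing libraries of sorted adipocyte precursors, as 4 genes taken by name out of 20207 listed. All 4 were found in every table. The precursors, which are the stromal progenitors of fat cells, were isolated from adipose tissue of young C57BL/6 mice at zeitgeber time 2 (2 h after lights on) by sorting cells with surface Sca1 and without CD45 or CD31. The wild-type (WT) group had 2 libraries, made from littermate controls, and the Per3 knockout (Per3 KO) group had 2. Per3 is a period gene of the circadian clock. The labels give neither the altered part of Per3 nor the fat depot. Nothing states that each replicate is its own animal or that animals were pooled, so a p-value measures the spread of these libraries alone, which may be technical. The series addresses how the precursor transcriptome of Per3 KO mice differs from that of WT littermates.

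DBP, TEF and HLF are the PAR bZIP transcription factors, named for a region rich in proline and acidic residues beside their leucine zipper. They bind a DNA element called the D-box and activate transcription, and NFIL3 (also called E4BP4) binds the same element and represses it. The family is an output arm of the circadian clock in the mouse. The heterodimer of CLOCK and BMAL1 drives PAR bZIP genes through E-boxes, whereas Nfil3 is controlled, like Arntl (the BMAL1 gene), by REV-ERB repressors and ROR activators. In mouse tissues with a running clock the PAR bZIP transcripts and Nfil3 therefore peak at different times of day.

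The sequence just upstream of the genes was read for the elements of these regulators, since Dbp and Tef showed nearly the same pattern over the libraries. The windows are the 250 bases before a RefSeq transcription start on build GRCm38.p6, printed on the gene's strand. They were searched on both strands for the E-box CACGTG, the E-box variant CACGTT, the D-boxes TTATGTAA and TTACGTAA, and the hexamer AGGTCA that REV-ERB and ROR proteins recognise. Matches are in capitals, and no matches overlapped. The windows of the 2 Tef starts, of Dbp and of Nfil3 are shown because they hold the matches found and the closest partner of Tef. Their positions are chr15:81802423-81802672 and chr15:81811164-81811413 (plus strand) for Tef, chr7:45704997-45705246 (plus strand) for Dbp and chr13:52981040-52981289 (minus strand) for Nfil3.
Tef, first start: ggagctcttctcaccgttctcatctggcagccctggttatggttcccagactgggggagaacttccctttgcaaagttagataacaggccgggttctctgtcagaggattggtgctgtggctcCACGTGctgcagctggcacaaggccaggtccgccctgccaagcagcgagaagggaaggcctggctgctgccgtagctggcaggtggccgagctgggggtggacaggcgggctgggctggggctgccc
Tef, second start: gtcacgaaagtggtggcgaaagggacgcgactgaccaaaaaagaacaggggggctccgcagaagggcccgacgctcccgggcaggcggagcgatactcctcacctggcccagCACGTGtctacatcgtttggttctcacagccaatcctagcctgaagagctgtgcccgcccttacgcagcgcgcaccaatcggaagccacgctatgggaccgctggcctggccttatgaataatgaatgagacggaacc
Dbp: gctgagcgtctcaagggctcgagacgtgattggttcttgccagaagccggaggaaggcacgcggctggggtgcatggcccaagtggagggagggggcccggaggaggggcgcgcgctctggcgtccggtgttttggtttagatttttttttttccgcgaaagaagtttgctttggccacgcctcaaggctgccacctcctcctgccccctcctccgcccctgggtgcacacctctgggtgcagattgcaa
Nfil3: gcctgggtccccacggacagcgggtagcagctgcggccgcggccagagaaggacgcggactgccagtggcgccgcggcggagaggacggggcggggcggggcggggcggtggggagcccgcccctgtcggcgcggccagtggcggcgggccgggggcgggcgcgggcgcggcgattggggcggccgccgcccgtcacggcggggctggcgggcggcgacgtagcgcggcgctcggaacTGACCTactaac

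Each Tef window held 1 E-box CACGTG, 127 to 122 bases before the first start and 138 to 133 bases before the second. Of 32851 promoter windows of this length, 6.02% held that E-box. The Nfil3 window held 1 AGGTCA, read on the opposite strand as TGACCT, 12 to 7 bases before the start, a hexamer present in 14% of windows. The Dbp window and the Hlf window (not shown) held none of the letters searched. The variant CACGTT was in 3.85% of all windows, TTATGTAA in 0.819% and TTACGTAA in 0.113%, and none of these 3 was in a window of the 4 genes. These matches describe letters only. Sequence further upstream or inside the genes was not searched, so a window without matches does not show that its gene lacks these elements.

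Libraries held 27950724 to 64964300 gene reads. Levels are given as CPM, that is reads scaled to the library total and its TMM factor, or as the deposited RPKM where genes are compared per length. Where 4 values follow each other they stand in the order of WT 1, WT 2, Per3 KO 1, Per3 KO 2. Library WT 2 stood apart, with the lowest depth, the lowest TMM factor (0.833, against 1.03 to 1.12 in the others) and the lowest correlations across genes (log2 CPM, r = 0.853 to 0.892). Per3 itself did not separate the groups, with read counts of 121, 170, 193 and 768, the last pair from the libraries labelled Per3 KO (log2 fold change 0.54 ± 0.83 SE, or -0.17 without Per3 KO 2). A count over the whole gene cannot check a partial deletion, so the groups are called WT and KO-labelled, and "higher" or "lower" is said of the KO-labelled group. All 10 precursor and fibroblast markers were read in every library, at a summed 66014 to 110180 CPM. Of the genes of the gate, Ly6a (Sca1) was at 2132 to 14268 CPM, Ptprc (CD45) at 0 to 0.686 CPM and Pecam1 (CD31) at 2.06 to 8.85 CPM. The sums were 10.8 to 52.1 CPM for 12 leukocyte markers and 72.0 to 168 CPM for 8 endothelial markers. Tek alone gave 63.7 to 161 CPM of the endothelial sum.

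The transcripts of the PAR bZIP activators stood higher in both KO-labelled libraries than in both WT libraries, without passing the adjusted test, and that of their repressor did not separate the groups. Tef and Dbp each differed about 5-fold between the groups, Hlf was low in all libraries and lowest in WT, and Nfil3 overlapped between groups. None of the 4 genes passed edgeR's quasi-likelihood test after Benjamini-Hochberg adjustment over 12494 genes (adjusted p = 1.00 for each). That test called 0 genes of the whole table (0%) at an adjusted p under 0.05, while DESeq2 called 19 genes and limma on log2(RPKM + 0.5) called 1, none of them a PAR bZIP gene or Nfil3. At an unadjusted p under 0.05, edgeR gave 257 genes (2.06%), and 148 of these were higher in the KO-labelled libraries (1.18% of genes tested), Tef and Dbp among them, or 2 of the 4. The KO-labelled pair stood entirely above the WT pair for 14.6% of all genes tested and for 3 of the 4, namely Dbp, Tef and Hlf. With 2 libraries against 2, an exact permutation test of a single gene cannot go below p = 0.33 (two-sided).

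**Figure D1:**
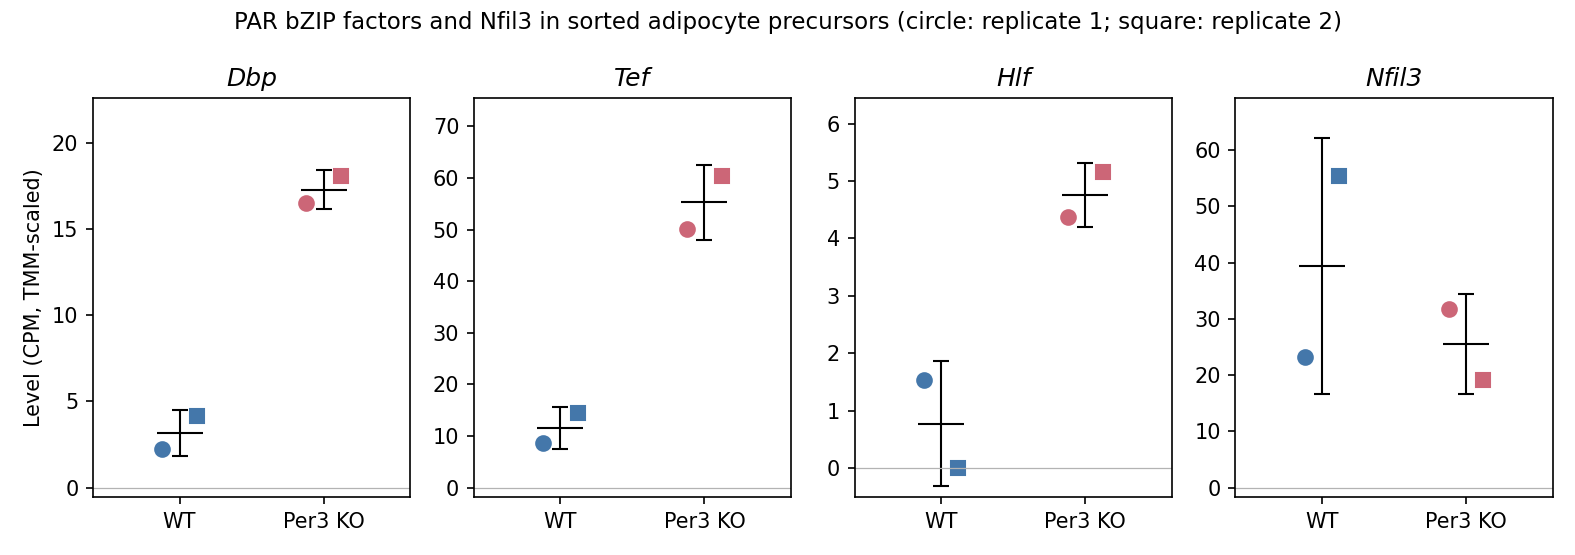
Level of Dbp, Tef, Hlf and Nfil3 (TMM-scaled CPM, linear axis, a scale of its own for each gene) in 2 WT and 2 KO-labelled libraries; the black dash is the group mean and the bar ± 1 SD (n = 2). Dbp and Tef lie near 17.3 and 55.3 CPM in the KO-labelled group against 3.17 and 11.6 CPM in WT, and the Nfil3 groups overlap.

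Tef encodes thyrotroph embryonic factor, the most abundant of the PAR bZIP transcripts here (mm9 chromosome 15, 81633103 to 81657291). Tef was read 334 and 336 times in WT and 2077 and 4403 times in the KO-labelled pair, or 8.71, 14.4, 50.1 and 60.4 CPM. The WT libraries were both low and the KO-labelled libraries both high, with a gap wider than the spread within either group. The group levels were 11.6 ± 4.05 CPM for WT and, for the KO-labelled pair, 55.3 ± 7.26 CPM (SD, n = 2), a 4.77-fold ratio of means. The log2 fold change was 2.26 ± 0.53 (SE), and its unadjusted p of 0.00324 in the edgeR fit was number 4 in rank among 12494 genes, yet the adjusted p was 1.00. Number 3 was the skeletal muscle marker Tnnc2, with a log2 fold change of -3.07 ± 0.72 (SE). With each library left out in turn the log2 fold change of Tef ran from 1.94 to 2.67.

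Dbp encodes the albumin D-box binding protein, the family member most widely used as a reporter of clock output (mm9 chromosome 7, 52960617 to 52965573). The reads of Dbp numbered 85 and 96 in WT, then 683 and 1317 in the KO-labelled libraries, which gave 2.22, 4.13, 16.5 and 18.1 CPM. As with Tef, WT 1 was the lowest and the groups did not overlap. The group levels were 3.17 ± 1.35 CPM for WT and 17.3 ± 1.12 CPM for the KO-labelled pair (SD, n = 2), a 5.45-fold ratio of means. The log2 fold change was 2.45 ± 0.69 (SE), with an unadjusted p of 0.00886 (rank 25 in the edgeR fit) and an adjusted p of 1.00. Left-out libraries moved it between 2.07 and 2.97. The gene Sphk2 lies 58 bases from Dbp, and the use of strand in counting is not given in the sources used here. Sphk2 had 80, 73, 20 and 489 reads (log2 fold change 0.46, adjusted p = 1.00, edgeR). It was lowest in Per3 KO 1, unlike Dbp, and highest in Per3 KO 2, like Dbp. Whether reads of either gene were counted for the other was not tested.

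Hlf encodes hepatic leukemia factor, known in human leukaemia as a fusion partner of TCF3 (mm9 chromosome 11, 90197849 to 90252231). It was the least abundant of the 4, with 59 and 0 reads in the WT libraries and 181 and 376 in those labelled Per3 KO. These were 1.54, 0, 4.37 and 5.16 CPM, and a count of 0 in WT 2 allows up to 0.129 CPM (3 reads, counting error only). The KO-labelled libraries were again both above WT, at 4.76 ± 0.558 CPM against 0.769 ± 1.09 CPM (SD, n = 2). Its log2 fold change, 2.61, came with a standard error (SE) of 1.85 and an edgeR adjusted p of 1.00. It was 1.63 without WT 2, and against WT 2 alone Hlf was at least 36.9-fold higher.

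Nfil3 encodes the D-box repressor NFIL3 (mm9 chromosome 13, 53062578 to 53076408). Nfil3 was read 892 and 1290 times in WT and 1317 and 1400 times in the KO-labelled libraries, or 23.3, 55.4, 31.8 and 19.2 CPM. WT 2 was the highest and Per3 KO 2 the lowest, and WT 1 lay between the KO-labelled libraries, so the groups overlapped. The group levels were 39.4 ± 22.8 CPM for WT and 25.5 ± 8.90 CPM for the KO-labelled pair (SD, n = 2). The log2 fold change of -0.63 ± 0.60 (SE; edgeR adjusted p = 1.00) turned to 0.13 without WT 2, so neither a direction nor an absence of change can be read for Nfil3.

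**Figure D2:**
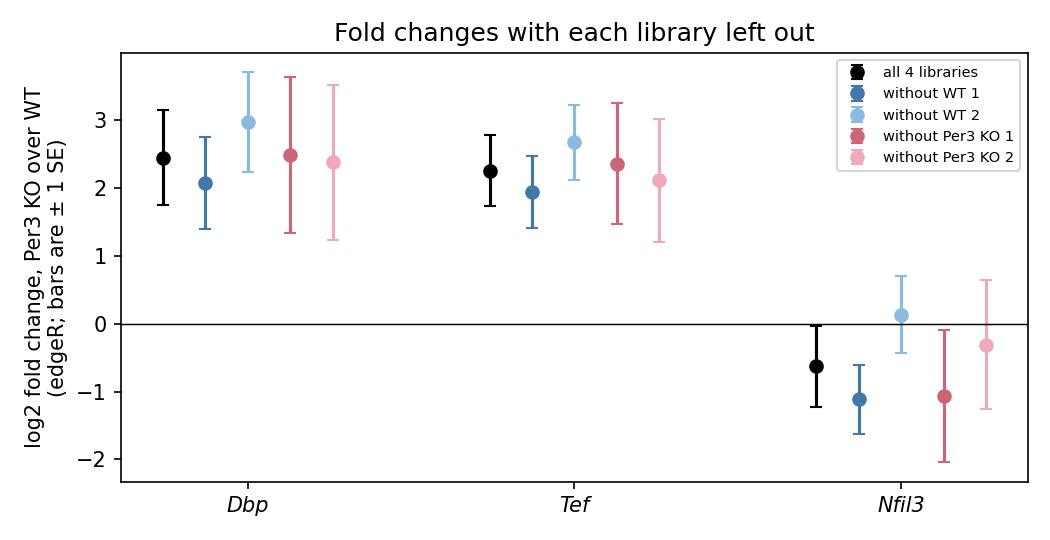
Log2 fold change of Dbp, Tef and Nfil3 (KO-labelled over WT, edgeR, bars ± 1 SE) with all 4 libraries and with each left out; fits with 3 libraries take the spread of a lone library from the remaining group. Dbp stays between 2.07 and 2.97 and Tef between 1.94 and 2.67, and Nfil3 crosses 0 without WT 2.

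The order of the levels per length differed between the WT libraries and Per3 KO 2. In RPKM Nfil3 was at 6.59 in WT 1 and 11.3 in WT 2, well above Tef at 1.18 and 1.41, Dbp at 0.746 and 0.996, and Hlf at 0.153 and 0. In Per3 KO 1 the order was the same, but the distances were shorter, with Nfil3 at 8.999, Tef at 6.81, Dbp at 5.54 and Hlf at 0.435. In Per3 KO 2 Tef (8.66) and Dbp (6.41) stood above Nfil3 (5.74), with Hlf at 0.542. Within each group the values of Tef and Dbp did not overlap, and in the KO-labelled group the range of Nfil3 overlapped with those of Tef and Dbp. Among genes with at least 1 read, Tef had a higher RPKM than 43.5% and 52.8% of them in WT and than 75.7% and 79.2% in the KO-labelled libraries. Nfil3 was above 73.0% to 85.9% of detected genes in all 4 libraries.

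Ratios inside a library do not depend on how libraries are scaled to each other. The summed RPKM of the activators Dbp, Tef and Hlf over that of Nfil3 was 0.316 and 0.213 in the WT libraries and 1.42 and 2.72 in the KO-labelled ones. Nfil3 transcripts per length thus exceeded those of the activators together in the WT libraries and were fewer in the KO-labelled ones. On the log2 scale the ratio was -1.94 ± 0.40 in WT and 0.98 ± 0.66 in the KO-labelled group (SD, n = 2), a difference of 2.92 that lay between 2.45 and 3.39 with any library left out. The ratio of Dbp to Tef RPKM, in contrast, was 0.629, 0.706, 0.813 and 0.740 in the same order, although each gene differed about 5-fold between groups. Tef made up 53.3% to 58.6% of the summed PAR bZIP RPKM in every library, and Dbp 35.8% to 43.3%. Hlf made up 7.36% in WT 1, was listed at 0 in WT 2, and made up 3.40% and 3.47% in the libraries labelled Per3 KO.

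**Figure D3:**
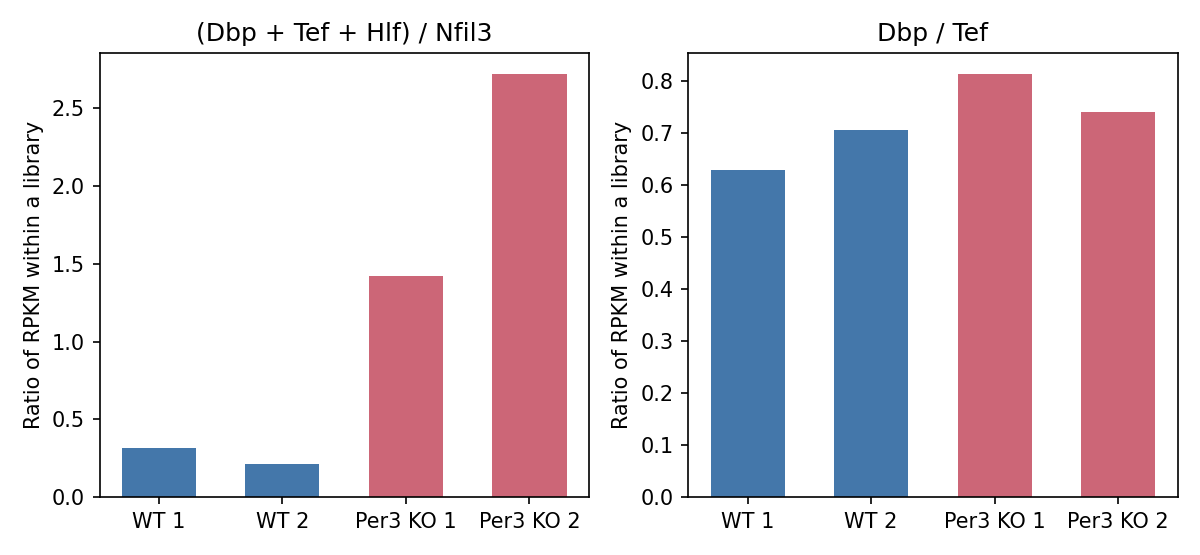
Ratios of RPKM within each library (bars, linear axes from 0), with the summed activators over Nfil3 on the left and Dbp over Tef on the right, in 2 WT (blue) and 2 KO-labelled (red) libraries. The activator-to-repressor ratio is 0.213 to 0.316 in WT and 1.42 to 2.72 in the KO-labelled libraries, while Dbp over Tef stays between 0.629 and 0.813.

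Likeness of pattern was measured as the Euclidean distance between log2(CPM + 0.5) values, each gene centred on its own mean over the 4 libraries, among genes with a mean of at least 5 CPM. Dbp and Tef were each other's nearest gene out of 8534, at a distance of 0.137. The next for Dbp were Slc22a18 (0.441) and Snrnp48 (0.475), and for Tef Snrnp48 (0.370) and Slc22a18 (0.386). Slc22a18 encodes a solute carrier and Snrnp48 a protein of the minor spliceosome. For Hlf the nearest were the tyrosine catabolism gene Fah (0.349), Adck1 (0.380) and the glycosyltransferase gene Galnt4 (0.505), with Tef at 1.93 and Dbp at 1.98. These genes share with Hlf a lower level in WT 2 than in WT 1, where Dbp and Tef had the opposite order. Nfil3 was nearest to Gnb2l1, which encodes the ribosome-bound scaffold RACK1, to the spliceosomal gene Snrpb2 and to Eapp, at 0.0600, 0.0727 and 0.0746. A distance of 0.5 or less was found for 3 genes around Dbp, 3 around Tef, 2 around Hlf and 530 around Nfil3. These were 0.0352%, 0.0352%, 0.0234% and 6.21% of the genes compared. The distance depends on the size of the differences between libraries as well as on their shape. These counts therefore cannot tell a rare pattern from a large difference. Over only 4 libraries such distances are a description.

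**Figure D4:**
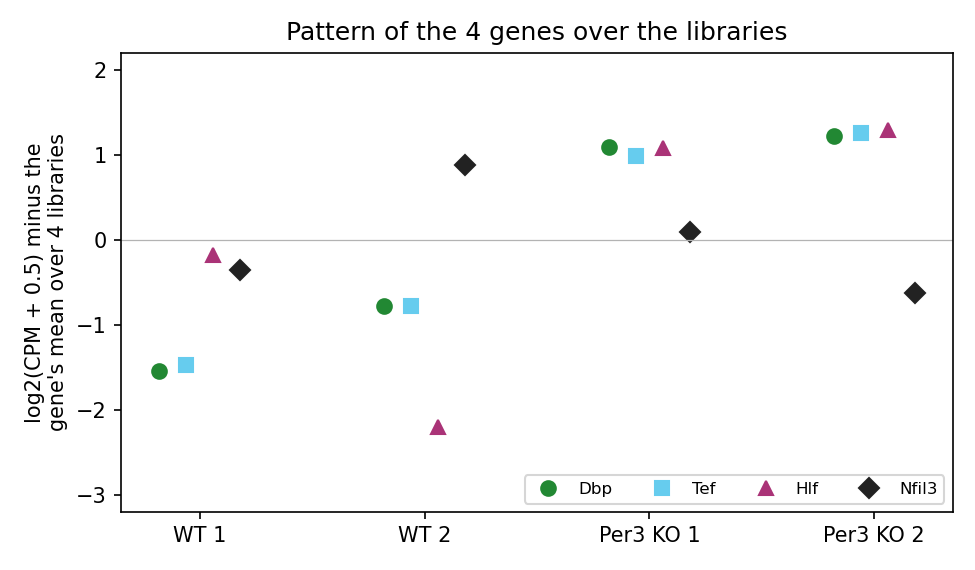
Log2(CPM + 0.5) of Dbp, Tef, Hlf and Nfil3 minus the mean of each gene over the 4 libraries, by library (points side by side for legibility). Dbp and Tef nearly coincide in every library, Hlf departs from them in WT 1 and WT 2, and Nfil3 is highest in WT 2.

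The clock genes around the D-box factors are given by role, beside a median log2 fold change of 0.01 over all genes tested. None passed the edgeR test (adjusted p = 1.00 for each). The E-box activators were on the opposite side from Dbp and Tef. All 3 of the tested activators lay below both WT libraries in both KO-labelled ones, as did 11.5% of all genes (median -1.29), and Arntl2 was too low to test. Arntl, the activator that with Clock drives PAR bZIP genes, had 1421 and 677 reads in WT and 591 and 779 in the KO-labelled libraries, with a log2 fold change of -1.41 ± 0.52. Those of Clock and its paralog Npas2 were -0.79 ± 0.52 and -1.29 ± 0.95 (SE). The ratio of Tef to Arntl RPKM was 0.165, 0.347, 2.46 and 3.96. The ratio of Nfil3 to Arntl, which share REV-ERB and ROR control, was 0.915, 2.78, 3.25 and 2.62. Only WT 1 stood apart in this ratio, and WT 2 lay between the KO-labelled libraries, so the groups overlapped.

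The E-box repressors were mostly on the side of the PAR bZIP genes. Of 7 tested, 6 had a log2 fold change above 0, as did 50.6% of all genes (median 0.54), and 2 lay above both WT libraries, as did 14.6% of all genes, namely Per2 at 2.15 ± 1.11 and Ciart, listed under its older symbol Gm129, at 1.41 ± 1.29 (SE). Per2 had 63, 17, 207 and 410 reads and Ciart 123, 8, 208 and 328. Bhlhe40, Per3, Cry2 and Per1 lay between 0.36 and 0.84 with overlapping groups, Cry1 was at -0.54, and Bhlhe41 was too low to test.

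Among the nuclear receptors that control Nfil3 and Arntl, the REV-ERB genes were on the side of the PAR bZIP genes. Nr1d1 (REV-ERBα) had 2463, 37, 8390 and 26160 reads, with a log2 fold change of 3.09 ± 1.37, and Nr1d2 (REV-ERBβ) had 654, 592, 2184 and 4887 reads, with 1.50 ± 0.50 (SE). Both lay above WT in both KO-labelled libraries, as did 14.6% of all genes tested. Nr1d1 was lower in WT 2 than in WT 1 (1.59 against 64.2 CPM), the opposite order to Dbp and Tef. Nr1d2 had the order of Dbp and Tef, at 17.1 CPM in WT 1 and 25.4 CPM in WT 2. Rora was at 0.45 ± 0.89 with overlapping groups. Rorb was at -2.44 ± 1.01 with both KO-labelled libraries below WT, as for 11.5% of all genes tested. The median of the 4 tested receptors was 0.97. It was 1.71 without WT 1, where the median of all genes tested was 0.22. The 3 tested other E-box outputs had a median of 0.93. The deubiquitinase gene Usp2 (0.93 ± 0.49) and the mitotic kinase gene Wee1 (1.00 ± 0.85) lay above both WT libraries, as did 14.6% of all genes tested. Nampt was at -0.06 ± 0.66, and Avp had no reads.

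**Figure D5:**
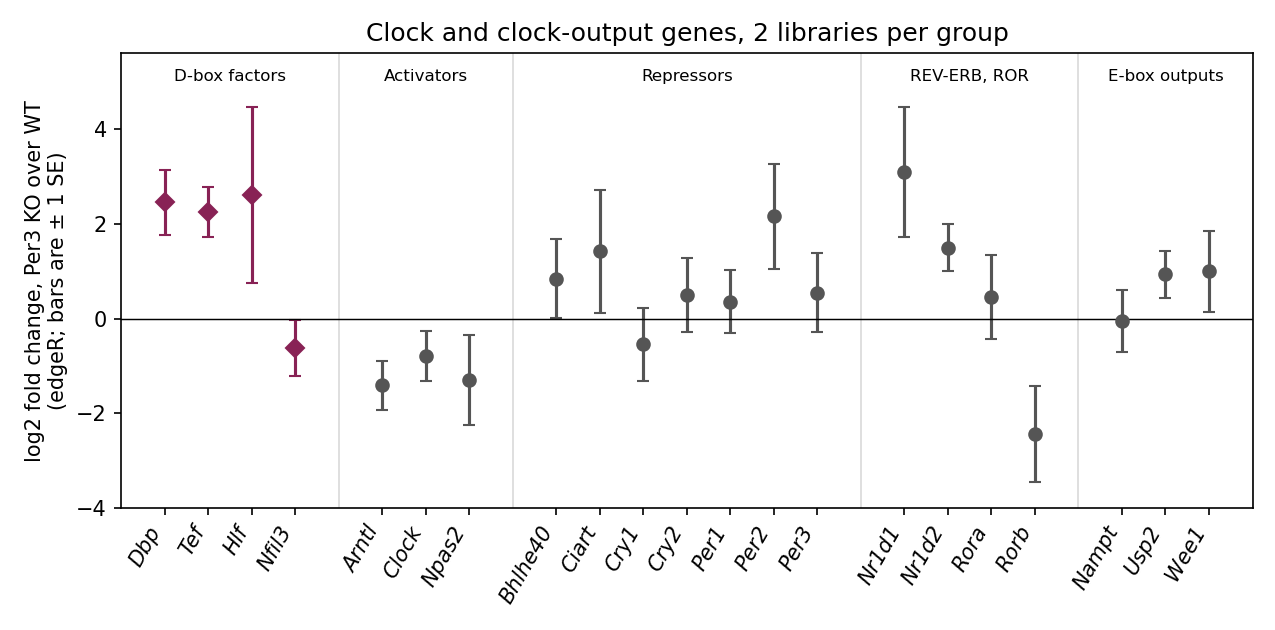
Log2 fold change (KO-labelled over WT, edgeR, bars ± 1 SE, 2 libraries per group) of the D-box factors (diamonds) and of tested clock genes by role (circles). Dbp, Tef, Hlf, Ciart, Per2, Nr1d1 and Nr1d2 lie above 1, Arntl, Npas2 and Rorb below -1, and none passed the adjusted test.

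Genes known from mouse studies as D-box or PAR bZIP targets were read last. Of 15 listed, 12 were tested, and 6 of these (Per1, Per2, Per3, Cry1, Nr1d1 and Rora) are also among the clock genes above. The log2 fold change was above 0 for 10 (median 0.52), against 50.6% of all genes. The KO-labelled pair stood above WT for 4 of the 12 and below for 0, against 14.6% and 11.5% of all genes. Besides Per2 and Nr1d1 these were Pdxk, the vitamin B6 kinase gene lowered in brains of mice lacking PAR bZIP factors, and Por, the electron donor of cytochrome P450 enzymes. Pdxk was read 1014, 655, 1891 and 4182 times (log2 fold change 0.92 ± 0.47, SE). Por was read 5206, 1445, 6209 and 12040 times (0.67 ± 0.57). Alas1, of haem synthesis, was at 0.41 ± 0.57 and Pparg, the adipogenic nuclear receptor, at 0.75 ± 0.96 with overlapping groups. Cry1 (-0.54) and Fgf21 (-1.42 ± 2.22) had the opposite sign, Ppara was at 0.49 ± 2.76, and Cyp2a5, Nr1i3 and Tshb were too low to test. The median of the list was 1.76 without WT 1, where that of all genes tested was 0.22.

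PAR bZIP genes are also expressed in liver and in mature fat cells, so transcripts of those cells were read beside them. The 8 hepatocyte markers summed to 435 and 77.0 CPM in WT and to 84.9 and 1538 CPM in the KO-labelled libraries. Trf alone gave 176, 31.0, 84.2 and 203 CPM of these sums, which was nearly all of the sum in Per3 KO 1. Albumin had 3290, 183, 1 and 30330 reads, beside 2.22, 4.13, 16.5 and 18.1 CPM of Dbp and 8.71, 14.4, 50.1 and 60.4 CPM of Tef. Per3 KO 2 was thus the highest library for all of these, whereas Per3 KO 1 was the lowest for albumin and high for Dbp and Tef, and the part of liver transcripts in the PAR bZIP levels was not tested. The 8 mature adipocyte markers summed to 222, 38.0, 231 and 185 CPM, of which Car3 alone gave 213, 25.3, 224 and 171 CPM. Leptin was at 0 in every library. Of the 5 tested, Adipoq lay below both WT libraries in both KO-labelled ones and Slc2a4 above, against 11.5% and 14.6% of all genes. Slc2a4, the insulin-responsive glucose transporter gene, had 22, 5, 108 and 454 reads. Car3, Pck1 and Plin1 overlapped between groups. Cidec (5, 43, 0 and 0 reads) was lower in both KO-labelled libraries but, like Retn, too low to test. The skeletal muscle markers summed to 61.6 and 96.7 CPM in WT and 27.0 and 26.0 CPM in the KO-labelled libraries, 4 of 7 tested lying below both WT libraries against 11.5% of all genes, and their part in the PAR bZIP levels was not tested. In a sorted bulk sample, fewer cells of a type and less RNA per cell cannot be told apart.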

How the data were processed

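RNA of sorted precursors was measured in 4 libraries, whose titles give the group and replicate number. Per the labels' protocols, total RNA was extracted right after the sort and cDNA was primed with oligo-dT. Per the file headers, each deposited table gives for every gene an estimated count, which is not normalised, and 8.85% to 12.0% of these values were not whole (tolerance 1e-09). The deposited RPKM column scales reads by transcript length and library total. Left unused were 2 more deposited columns, a Z-score, which is a score of RPKM within the library, and a ratio of RPKM to its root mean square. The submitters' processing notes name STAR 2.4.0, Cufflinks, Cuffdiff 2.2.1 and build mm9 but no roles, and the counter is not given in the sources used here.

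Counts were rounded, filtered with filterByExpr (minimum count 10, minimum total 15), scaled by TMM and compared with edgeR 4.0.16 in R 4.3.3 (glmQLFit and glmQLFTest, prior count 0.125, genotype only, two-sided, Benjamini-Hochberg over all genes, threshold 0.05). The fit was tested on simulated counts. A standard error is the log2 fold change over the square root of F. Alternatives used DESeq2 1.42.0, limma 3.58.1 on log2(RPKM + pseudocount) where the mean RPKM reached 1, other scalings and filters, blocks and left-out libraries. Named genes were the 4 members, Per3, the 3 nearest by pattern to each member and members of the clock, D-box and cell marker lists. The members, lists and named genes were chosen with earlier results of these data known. Promoter sequences are from RefSeq (GRCm38.p6), where all 4 symbols matched. The files use mm9, and no coordinates were converted. No protein sequences were used here. A listed gene is not reported here.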

Additional observations from a re-analysis of the deposited data

How the results depend on the processing

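No member passed an adjusted p of 0.05 under any alternative run. The lowest adjusted p with all 4 libraries was 0.129 for Tef and 0.271 for Dbp (both DESeq2). It was 0.979 for Nfil3 (limma, pseudocount 0.1) and 0.999 for Hlf (edgeR with the crossed block, below). The highest was 1.00 for each. Without WT 1, WT 2 alone was the WT group, and the median log2 fold change of all genes tested was 0.22. Dbp, Tef and Nfil3 had 14 alternatives and Hlf had 10. The log2 fold change stayed positive for Dbp (1.90 to 2.97), Tef (1.92 to 2.67) and Hlf (1.63 to 10.8) in all of these. The lowest Dbp and Tef values came from limma with a pseudocount of 1. The highest Hlf value came without WT 1, against the 0 reads of WT 2 alone. Hlf had too low a mean RPKM for limma and for the filter on RPKM, which gave no value. With a library left out Nfil3 ran from -1.12 to 0.13, and Per3 from -0.17 to 1.28. Over all genes, 0 were called in edgeR, 4 with no filter, 19 with DESeq2, 1 with limma at each pseudocount (0.1, 0.5 and 1) and 1 to 4 with a library left out. The cause was not tested. Scaling by library totals alone moved the median of all genes to 0.21, against which Dbp stood at 2.71, Tef at 2.51 and Nfil3 at -0.37. With left-out libraries the median ran from -1.64 to -0.93 for clock activators, 0.10 to 0.98 for clock repressors, 0.70 to 1.71 for REV-ERB and ROR receptors (1.49 with the RPKM filter), 0.30 to 1.05 for other E-box outputs (0.44 where the filter was a mean RPKM of 1) and 0.38 to 1.76 for D-box targets.

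The labels give no shared origin for equal replicate numbers, and same-numbered libraries deviated from their group means with a correlation of -0.15 across genes. With the replicate number as a block, 1 gene was called, Tef was at 2.29 and Dbp at 2.51, and no member was called. A crossed block, added after seeing the data, called 2 genes.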
